A study of Mus musculus with 8 samples.

Results

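The p53 family of transcription factors, encoded by Trp53, Trp63 and Trp73, was described in the skin of newborn mice that had lost pRb, p53 or both. Members were chosen by symbol: each probe set whose platform annotation gave 1 of these 3 symbols and no other was taken, whatever its values. This gave 5 of the 22690 probe sets on the array, 3 for Trp63 and 2 for Trp73. Trp53, the gene inactivated in 2 of the genotypes, was not analysed here.

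The data were 8 oligonucleotide microarrays of total RNA extracted from the whole skin of newborn FVB (inbred) mice. The 4 genotypes were pRb-/-;p53-/- (double_null), pRb+/+;p53-/- (p53_null), pRb-/-;p53+/+ (pRb_null) and control, with 2 arrays each. Each array held RNA pooled from 3 animals of 1 genotype. Per the series title the losses were somatic and in stratified epithelia, so the other cells of whole skin may keep both genes. The promoter that drove the recombination, and the alleles of the control animals, are not given in the sources used here. In such bulk RNA, fewer cells of a type and less RNA per cell cannot be told apart. Nothing in the labels tells whether both arrays of a genotype came from separate pools. A p-value here therefore measures only how far these arrays spread, and that spread may be technical.

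All 3 proteins bind the same kind of DNA site through closely related DNA-binding domains. p53 halts the cell cycle or triggers apoptosis after damage. p63 is the family member that builds stratified epithelia: basal keratinocytes make mostly its ΔN form, which lacks the first activation domain, and mice without p63 fail to form a normal epidermis. p73 acts in neurons and in cells with many cilia, and it too exists as a full-length TA form and a ΔN form, each started from a promoter of its own. pRb holds back E2F factors, and E2F1 is known to activate the promoter of the full-length p73 form.

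The deposited values were standardized: over the 8 arrays each probe set has a mean of 0 and an SD of 1. Scores therefore give the order and spacing of arrays for 1 probe set, in units of that probe set's own SD, and hold no expression level and no fold change. For the same reason the level of skin markers could not be checked. Across probe sets the 2 arrays of a genotype correlated at r = 0.118 to 0.337, while the highest r between arrays of different genotypes was 0.093. Rb1 was measured by 1 probe set, with scores of -0.55 and -1.90 in double_null, 0.50 and 0.22 in p53_null, -0.71 and 0.44 in pRb_null and 1.20 and 0.80 in control. Its difference from control was -2.23 ± 0.65 (SE) in double_null, with an adjusted p of 0.205, and -1.14 ± 0.65 in pRb_null, with an adjusted p of 0.625. Where its probes lie relative to the deleted part is not stated, so Rb1 does not check the labels.

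Trp63 gave opposite pictures depending on the probe set. Both probe sets with the suffix _a_at scored lowest in the control arrays and higher on all 6 mutant arrays, whereas 1418158_at scored highest in control and lowest on average in double_null. The platform annotation used here does not say which p63 forms each probe set detects. None of the 3 passed the test over all probe sets in any comparison.

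For Trp63 1451876_a_at the scores were 0.17 and -0.07 in double_null, 0.71 and 0.33 in p53_null, 1.17 and 0.64 in pRb_null and -1.80 and -1.15 in control. The mutant arrays did not overlap the control arrays, and the double_null arrays lay below those of both single mutants. The means were 0.05 ± 0.17, 0.52 ± 0.27, 0.91 ± 0.37 and -1.48 ± 0.46 in the same order of genotypes (SD, n = 2 each). From high to low the order was pRb_null, p53_null, double_null and control, and the 2 single mutants, neighbours in it, overlapped.

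Trp63 1452027_a_at also put control lowest and double_null next. It scored 0.36 and 0.07 in double_null, 0.70 and 0.60 in p53_null, 0.57 and 0.73 in pRb_null and -2.05 and -0.98 in control. The single mutants overlapped each other, double_null lay just below them, and control lay far below. Over the 8 arrays the 2 probe sets had a Pearson r of 0.96 and a Spearman rho of 0.83, a description over arrays on which each was standardized. Among the 12821 pairs of probe sets that share 1 symbol, from 4956 genes, the median r was 0.21 with quartiles of -0.16 and 0.54, and 0.429% of pairs had an r at least as high.

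Trp63 1418158_at scored -0.48 and -1.95 in double_null, 0.50 and 0.64 in p53_null, -0.65 and 0.00 in pRb_null and 1.04 and 0.90 in control. Here the control arrays stood above all 6 mutant arrays, p53_null came next, and double_null overlapped pRb_null. The means were -1.21 ± 1.04 in double_null, 0.57 ± 0.10 in p53_null, -0.33 ± 0.46 in pRb_null and 0.97 ± 0.10 in control (SD, n = 2 each). Its r with the other Trp63 probe sets was -0.44 and -0.42, and 10.8% of same-symbol pairs on the array had an r of -0.42 or less.

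**Figure D1:**
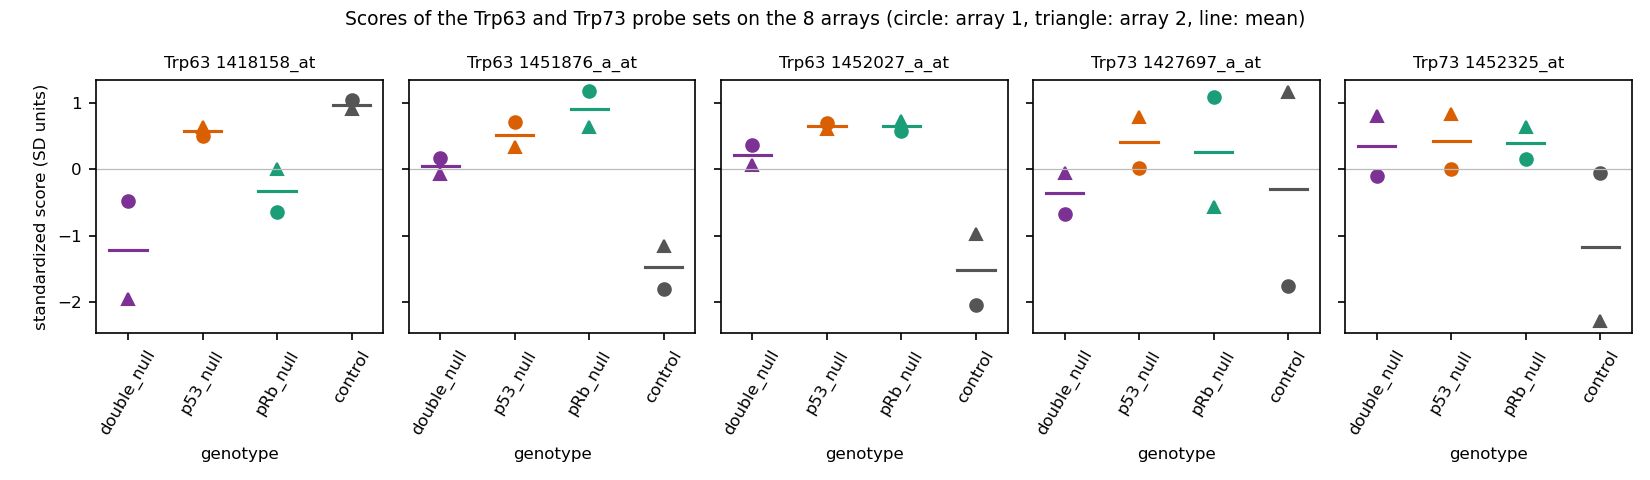
Standardized scores (SD units, vertical axis) of the 3 Trp63 and 2 Trp73 probe sets by genotype, with circles for array 1, triangles for array 2 and a line at the mean. The control arrays are lowest for both Trp63 probe sets with the suffix _a_at, highest for Trp63 1418158_at, and at both ends of the range for Trp73 1427697_a_at.

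Loss of both proteins against control asked how the family stands in the skin that the series title links to spontaneous carcinoma. The difference was 1.53 ± 0.34 (SE) for Trp63 1451876_a_at, 1.73 ± 0.40 for 1452027_a_at and -2.18 ± 0.57 for 1418158_at, with adjusted p-values of 0.145, 0.153 and 0.178. By limma's test with Benjamini-Hochberg adjustment, 0 of the 5 members passed at an adjusted p under 0.05, where 0.846% of all probe sets did. At an unadjusted p under 0.05, 2 members were higher, where 8.77% of all probe sets were, and 1 was lower, where 9.91% were.

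Loss of p53 alone put the same 2 Trp63 probe sets above control. The difference was 2.00 ± 0.34 for 1451876_a_at (adjusted p = 0.151), 2.16 ± 0.40 for 1452027_a_at (adjusted p = 0.165) and -0.40 ± 0.57 for 1418158_at (adjusted p = 0.797). The interval of the last, -1.98 to 1.19, spans differences of either sign. Of the members, 0 passed at an adjusted p under 0.05, against 0.119% of all probe sets. At an unadjusted p under 0.05, 2 members were higher, where 7.38% of all probe sets were, and 0 were lower, where 7.23% were.

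Loss of pRb alone gave 2.38 ± 0.34 for 1451876_a_at, 2.17 ± 0.40 for 1452027_a_at and -1.30 ± 0.57 for 1418158_at, with adjusted p-values of 0.207, 0.264 and 0.539. Neither the members nor any other probe set passed at an adjusted p under 0.05, with 0 of 5 and 0% of all probe sets called by limma. At an unadjusted p under 0.05, 2 members were higher and 0 lower, where 6.44% of all probe sets were higher and 4.21% lower. These 3 comparisons share the control arrays, so the low control scores enter each of them.

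The double mutant was also set against each single mutant. Against pRb_null, the Trp63 differences were -0.86 ± 0.34 for 1451876_a_at, -0.43 ± 0.40 for 1452027_a_at and -0.89 ± 0.57 for 1418158_at, with adjusted p-values of 0.296, 0.602 and 0.47. All 3 had a negative sign, but none passed, and the last was -0.16 without double_null array 2 and -1.62 without double_null array 1. Of the 5 members, 0 had an unadjusted p under 0.05, where 18.6% of all probe sets did and 0.405% passed after adjustment. Against p53_null, 1451876_a_at differed by -0.47 ± 0.34, 1452027_a_at by -0.43 ± 0.40 and 1418158_at by -1.79 ± 0.57 (adjusted p = 0.384). The last was -1.05 without double_null array 2. There 1 member had an unadjusted p under 0.05, where 11.9% of all probe sets did, and 0 passed after adjustment, where 0.0353% did. Between the single mutants, p53_null and pRb_null, 0 members passed at either threshold, where 0.0573% of all probe sets passed after adjustment and 16.2% had an unadjusted p under 0.05.

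Averaged over both pRb states, loss of p53 gave 0.57 ± 0.24 for 1451876_a_at, 0.87 ± 0.28 for 1452027_a_at and -0.64 ± 0.40 for 1418158_at. After adjustment 0 members passed, where 1.26% of all probe sets did. At an unadjusted p under 0.05, 1 member was higher and 0 lower, where 9.71% of all probe sets were higher and 12.4% lower. Averaged over both p53 states, loss of pRb gave 0.96 ± 0.24, 0.87 ± 0.28 and -1.54 ± 0.40 for the same probe sets. Of the 5 members, 3 had an unadjusted p under 0.05, where 12.9% of all probe sets did, and 0 passed after adjustment, where 0.00441% did.

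The interaction asked whether both losses together differ from the sum of the single losses. It was -2.85 ± 0.48 for 1451876_a_at (adjusted p = 0.282) and -2.60 ± 0.56 for 1452027_a_at (adjusted p = 0.333). The double_null scores of these probe sets were lower than the sum would place them, although still above control. For 1418158_at it was -0.49 ± 0.81 (adjusted p = 0.868). Of the members, 2 had an unadjusted p under 0.05, where 10.5% of all probe sets did, and 0 passed after adjustment by limma, where 0% of all probe sets did.

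**Figure D2:**
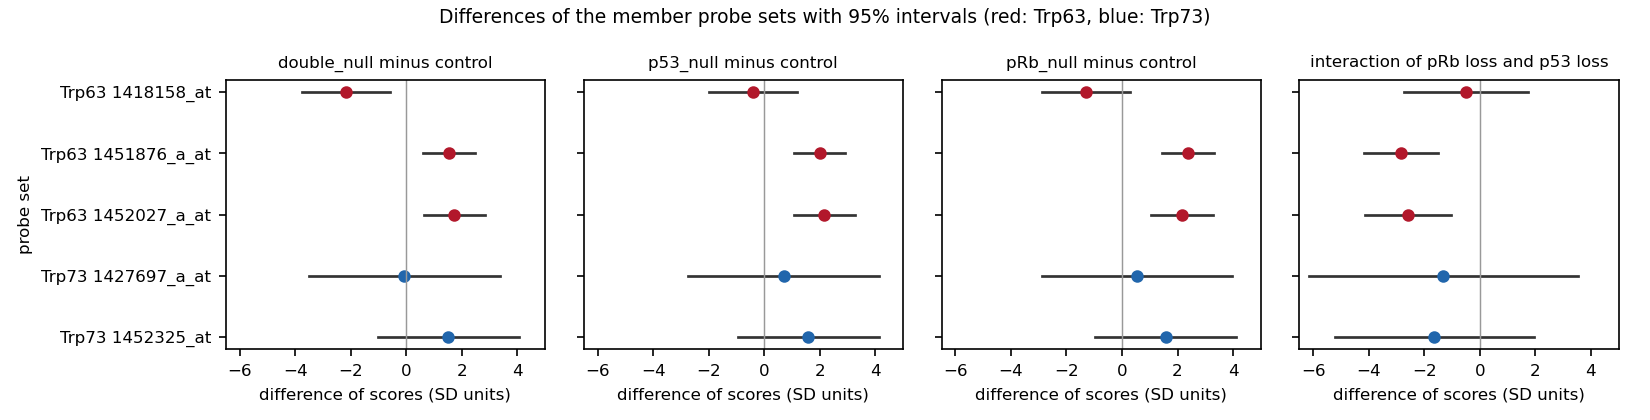
Differences of scores (SD units, horizontal axis) with 95% intervals for the 5 member probe sets, in the 3 comparisons with control and in the interaction. The intervals of both Trp63 probe sets with the suffix _a_at lie on 1 side of 0 in each panel, and those of both Trp73 probe sets span 0 in each panel.

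The order of arrays that these 2 Trp63 probe sets showed was not rare. Both control arrays stood below every mutant array in 2 of the 5 members and in 7.01% of all probe sets, and above every mutant array in 1 member and in 5.7%. Among probe sets with the suffix _a_at the first order was found in 10.4% of 4040, against 6.41% of 15605 with the plain suffix _at. The array's control probe sets showed it more often: 20 of 64 stood lowest in both control arrays and 2 stood highest. The split followed the end of the transcript that a control probe set matches, with 12 of 22 for 5′ ends, 6 of 17 for middles and 2 of 22 for 3′ ends. For 5′ ends it held in 5 of 5 controls for mouse genes and in 7 of 17 for bacterial and phage sequences.

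The median score of the 5′ controls was 0.35 and 0.37 in double_null, 0.24 and 0.64 in p53_null, 0.58 and 0.03 in pRb_null and -1.17 and -1.0 in control. For the 3′ controls it was 0.00 and 0.32 in double_null, -0.24 and 0.67 in p53_null, -0.12 and -0.47 in pRb_null and -0.48 and 0.09 in control. For the middle controls it was between -0.03 and 0.46 on the mutant arrays and -0.72 and -0.79 in control. The 5′ and middle controls thus put the control arrays below the mutant arrays, as the Trp63 _a_at probe sets did, and the 3′ controls overlapped. Their part in the Trp63 result was not tested.

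**Figure D3:**
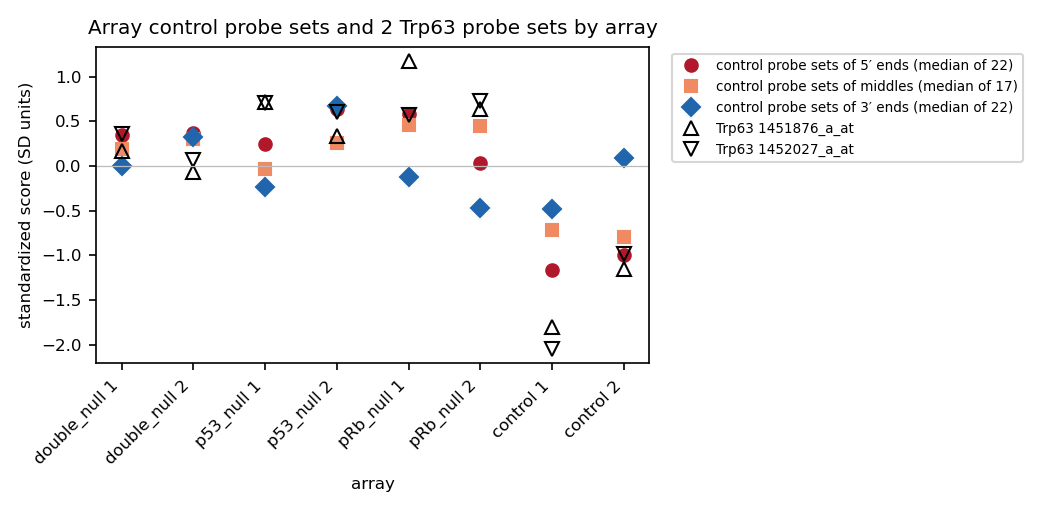
Standardized scores (SD units, vertical axis) by array for the medians of the array's control probe sets, grouped by the transcript end they match, and for 2 Trp63 probe sets. On the control arrays the medians of the 5′ controls are -1.17 and -1.0 and both Trp63 probe sets are low as well, while the 3′ controls are at -0.48 and 0.09.

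Neither Trp73 probe set separated the genotypes. The 2 probe sets had an r of -0.30 and a rho of 0.05 with each other over the 8 arrays, and between -0.46 and 0.50 with those of Trp63. No comparison passed the test for either.

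Trp73 1427697_a_at scored -0.67 and -0.05 in double_null, 0.02 and 0.79 in p53_null, 1.08 and -0.57 in pRb_null and -1.75 and 1.16 in control. The lowest and the highest of the 8 scores were both control arrays, so control overlapped each mutant group. The means were -0.36 ± 0.44, 0.40 ± 0.55, 0.25 ± 1.17 and -0.29 ± 2.06 in the same order (SD, n = 2 each), and no neighbours among them differ beyond their spread. The differences from control were -0.07 ± 1.24 in double_null (adjusted p = 0.982), 0.70 ± 1.24 in p53_null (adjusted p = 0.839) and 0.55 ± 1.24 in pRb_null (adjusted p = 0.914), and each took the other sign when 1 array was left out.

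Trp73 1452325_at scored -0.10 and 0.80 in double_null, 0.01 and 0.83 in p53_null, 0.16 and 0.63 in pRb_null and -0.05 and -2.29 in control. A single control array stood far below the other 7, among which the genotypes overlapped. The difference from control was 1.52 ± 0.92 in double_null (95% interval -1.02 to 4.06, adjusted p = 0.452), 1.59 ± 0.92 in p53_null (adjusted p = 0.503) and 1.57 ± 0.92 in pRb_null (adjusted p = 0.633). Without control array 2 these differences were 0.40, 0.47 and 0.45.

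Trp73 has 2 annotated starts in the RefSeq promoter table of assembly GRCm38.p6, and the internal one, from which the ΔN form is made, is shown because a p53 site has been described there in human TP73. It is the 300 bases at chr4:154097124-154097423 on the minus strand, 250 before and 50 after the start, with the best match to the p53 full site in capitals.
Trp73 internal promoter: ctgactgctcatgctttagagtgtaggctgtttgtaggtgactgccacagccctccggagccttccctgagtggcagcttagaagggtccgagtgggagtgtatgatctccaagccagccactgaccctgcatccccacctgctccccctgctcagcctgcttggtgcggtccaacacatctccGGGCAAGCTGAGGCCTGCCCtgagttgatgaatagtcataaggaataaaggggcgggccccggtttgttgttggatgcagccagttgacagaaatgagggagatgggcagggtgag
The capitals match the p53 full site, which reads the same on both strands, at 18 of its 20 positions, beginning 66 bases before the start. A match of 18 or more of 20 was found in 262 of 32851 promoters of this length, or 0.798%. In the upstream promoter of Trp73, at chr4:154139826-154140125 on the minus strand, the best match was 14 of 20. Its GC content was 77.7%, against 57.7% in the internal promoter and a median of 52.7% over all promoters. Neither held an exact copy of the E2F words TTTCCCGC, TTTCGCGC, TTTGCCGC or TTTGGCGC on either strand, where 2.26% of all promoters did. Unlike for the p53 site, near matches to these words were not counted. A match or its absence describes these letters and no binding.

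The genes whose scores ran most like each member over the 8 arrays were listed by Pearson r. For Trp63 1418158_at they were Btbd1 (0.992), Klhl9 (0.975), Obsl1 (0.974), the nuclear factor Nfib (0.97) and the fibroblast growth factor receptor Fgfr1 (0.97), and the most opposite was the respiratory chain subunit Cox6b1 (-0.979). For 1451876_a_at the list held Suco (0.983), Pafah1b2 (0.982), Ptprs (0.98), Coro1c (0.98) and the calcineurin regulator Rcan1 (0.976), and for 1452027_a_at the Golgi protein Gorasp2 (0.99), Lancl2 (0.984), the exocyst subunit Exoc4 (0.983), Add1 (0.979) and Caprin1 (0.975). For the most opposite, 1451876_a_at had Cops9 (-0.958) and 1452027_a_at had Cyp2d13 (-0.952). For Trp73, 1427697_a_at ran most like Pycrl (0.949) and most opposite to Il25 (-0.948), and 1452325_at ran most like Cnot9 (0.987) and the lymphocyte factor Irf4 (0.982) and most opposite to the chemokine Cxcl12 (-0.963). With 8 arrays such values are usual: the best r of a probe set had a median of 0.977 over 20380 probe sets with 1 symbol, and its 5th and 95th percentiles were 0.947 and 0.992.

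Genes that act on p53 family proteins were described next, with 51 probe sets for 29 of 38 listed genes. Against control, 0 passed in double_null, p53_null or pRb_null. With p53 loss averaged over both pRb states, 1 of 51 fell, where 1.26% of all probe sets were called: 1415703_at for Huwe1, a ubiquitin ligase that acts on p53. It scored -0.38 and -0.25 in double_null, -1.64 and -1.11 in p53_null, 0.67 and 0.81 in pRb_null and 0.92 and 0.96 in control, so the 4 arrays without p53 lay below the other 4. The averaged difference was -1.68 ± 0.14 (adjusted p = 0.0346), while its other probe sets gave 0.79 and -1.68 and did not pass. The examples with the next smallest p were the damage kinase Atm, the arginine methyltransferase Prmt5 and the p53 kinase Hipk2 (1448631_a_at). They gave -1.71 ± 0.20 (adjusted p = 0.0576), -1.24 ± 0.18 (adjusted p = 0.077) and -1.52 ± 0.23 (adjusted p = 0.0785). Prmt5 scored -1.72 and -1.36 in double_null, 0.52 and 0.07 in p53_null, 0.86 and 0.89 in pRb_null and 0.59 and 0.14 in control. It was thus low in double_null only and not with loss of p53 alone. Of the other probe sets of Hipk2, 1424863_a_at, 1424864_at and 1425983_x_at shared the sign of 1448631_a_at, and 1429566_a_at had the opposite sign. Yap1, a coactivator that binds p73, had probe sets whose differences took opposite signs. In double_null minus control 1416487_a_at differed by 0.84 ± 0.53 (adjusted p = 0.467) and 1448363_at by -2.39 ± 0.40 (adjusted p = 0.103). In pRb_null minus control the same probe sets gave 2.30 ± 0.53 (adjusted p = 0.32) and -0.59 ± 0.40 (adjusted p = 0.677).

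The p53 target genes had 66 probe sets for 39 of 45 listed genes, and their median difference was near that of all probe sets. It was -0.05 in double_null, -0.26 in p53_null and 0.17 in pRb_null against control, beside medians of -0.01, -0.15 and 0.07 over all probe sets. In double_null minus control 2 of 66 rose and 0 fell, where 0.846% of all probe sets were called. Dram1, a lysosomal membrane protein of autophagy, scored 1.40 and 1.59 in double_null, -0.97 and -1.15 in p53_null, -0.03 and -0.26 in pRb_null and -0.19 and -0.38 in control. Its difference was 1.78 ± 0.14 (adjusted p = 0.0372), and its arrays without p53 were both the highest, in double_null, and the lowest, in p53_null.

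Cdkn1a, the cell cycle inhibitor p21 and a classical p53 target, had 2 probe sets that disagreed. On 1421679_a_at it scored 1.67 and 1.42 in double_null, -0.61 and -0.55 in p53_null, -0.15 and -0.13 in pRb_null and -0.55 and -1.09 in control, and double_null minus control was 2.36 ± 0.21 (adjusted p = 0.0454). On 1424638_at it scored -0.40 and -0.09 in double_null, -1.72 and -0.98 in p53_null, 0.58 and 0.41 in pRb_null and 1.07 and 1.12 in control. There the 4 arrays without p53 lay below the other 4, and the averaged p53 difference was -1.59 ± 0.21 (adjusted p = 0.0642). Since the probe sets point in different directions, no direction is given for Cdkn1a.

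The p63 epidermal programme, genes of the basal layer and of epidermal development that p63 is known to act on, had 94 probe sets for 42 of 50 listed genes. Its median difference from control was -0.44 in double_null, -0.16 in p53_null and 0.09 in pRb_null, beside -0.01, -0.15 and 0.07 over all probe sets. At an unadjusted p under 0.05, 7 were higher and 23 lower in double_null, 13 higher and 15 lower in p53_null, and 16 higher and 3 lower in pRb_null. Over all probe sets 8.77% were higher and 9.91% lower in double_null, 7.38% and 7.23% in p53_null, and 6.44% and 4.21% in pRb_null. With p53 loss averaged over both pRb states the median was -0.50, beside -0.13 over all probe sets, with 6 higher and 22 lower, where 9.71% of all probe sets were higher and 12.4% lower. After adjustment, 1 of 94 fell in double_null, a share near the 0.846% of all probe sets called there. In the p53 average 3 of 94 fell, where 1.26% of all probe sets were called, and 0 fell in p53_null or pRb_null against control.

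Notch1, a receptor of epidermal differentiation, scored on 1418634_at -1.35 and -1.14 in double_null, -0.66 and -0.36 in p53_null, 0.53 and 0.74 in pRb_null and 1.14 and 1.09 in control. The 4 arrays without p53 lay below the other 4, and double_null was lowest. The difference was -2.36 ± 0.15 in double_null minus control (adjusted p = 0.0323) and -1.75 ± 0.11 for p53 loss averaged (adjusted p = 0.0266). On its other probe set, 1418633_at, Notch1 scored -1.98 and -0.22 in double_null and 1.34 and 0.34 in control. There p53_null scored -0.13 and 0.43 and pRb_null 0.78 and -0.55, so arrays with and without p53 overlapped.

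Egfr, the epidermal growth factor receptor, was called lower on 1 of its 5 probe sets with p53 loss averaged. On 1424932_at it scored -1.25 and -1.06 in double_null, -0.83 and -0.32 in p53_null, 1.36 and 1.06 in pRb_null and 0.52 and 0.51 in control, and the averaged difference was -1.73 ± 0.16 (adjusted p = 0.0412). Of its probe sets not called, 1451530_at, 1454313_at and 1460420_a_at also had a negative sign there, and 1432647_at a positive one. Cdh3, the P-cadherin of basal and hair matrix cells, scored -1.08 and -0.72 in double_null, -0.78 and -0.55 in p53_null, 1.67 and 1.26 in pRb_null and 0.09 and 0.11 in control. It fell by 1.57 ± 0.15 with p53 loss averaged (adjusted p = 0.0443), and pRb_null stood above control. Dlx3, a homeobox factor of differentiation, came next at -1.55 ± 0.16 (adjusted p = 0.0504).

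The signs were mixed in pRb_null, where the smallest p-values of this programme were positive differences. They were 2.07 ± 0.21 for Egfr 1451530_at (adjusted p = 0.172) and 2.55 ± 0.28 for the desmosomal cadherin Dsc3 (adjusted p = 0.18). Next came 2.32 ± 0.34 for Skp2 1449293_a_at (adjusted p = 0.219) and 2.33 ± 0.36 for Fgfr2 1420847_a_at (adjusted p = 0.229). None passed. Among these, the probe sets of Dsc3, Skp2 and Fgfr2 carry the suffix _a_at. The other probe sets of Skp2 did not all share the positive sign. The 7 calls given above for Huwe1, Dram1, Cdkn1a, Notch1, Egfr and Cdh3 were lost when any 1 array was left out and under the moderated test, while each kept its sign.

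The keratinocytes that hold p63 lie in the basal layer and in the hair follicle. The basal keratinocyte markers, with 20 probe sets for 12 of 13 genes, had medians of -0.23 in double_null, 0.12 in p53_null and 0.11 in pRb_null against control, and 0 passed in these comparisons. Among them the basal keratin Krt5 differed by -2.26 ± 0.43 in double_null (adjusted p = 0.121) and by -1.76 ± 0.43 in p53_null (adjusted p = 0.228). Others had the opposite sign: the integrin Itga6 (1422444_at) differed by 1.64 ± 0.40 in p53_null (adjusted p = 0.228), and Dst (1450119_at), of the hemidesmosome, by 1.09 ± 0.48 in double_null (adjusted p = 0.329). The other probe sets of Dst did not all share that positive sign. The hair follicle markers, with 17 probe sets for 16 of 17 genes, had medians of -2.33 in double_null, -1.19 in p53_null and -0.30 in pRb_null, and 10 of 17 fell in double_null, where 0.846% of all probe sets were called. The part of these cells in the values of Trp63 and of the p63 programme was not tested.

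The p73-linked genes, only in part genes of ciliated cells and neurons, had 14 probe sets for 9 of 13 listed genes. None passed in any of the comparisons with control, and their medians were 0.16 in double_null, 0.44 in p53_null and -0.03 in pRb_null. The smallest p-values in double_null minus control were those of the actin crosslinker Flna at -2.28 ± 0.30 (adjusted p = 0.0771) and the nuclear receptor coactivator Ncoa4 at 2.38 ± 0.32 (adjusted p = 0.0784). The genes with the strongest separation thus stood on opposite sides of control. Neither Flna nor Ncoa4 is particular to ciliated cells or neurons.

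**Figure D4:**
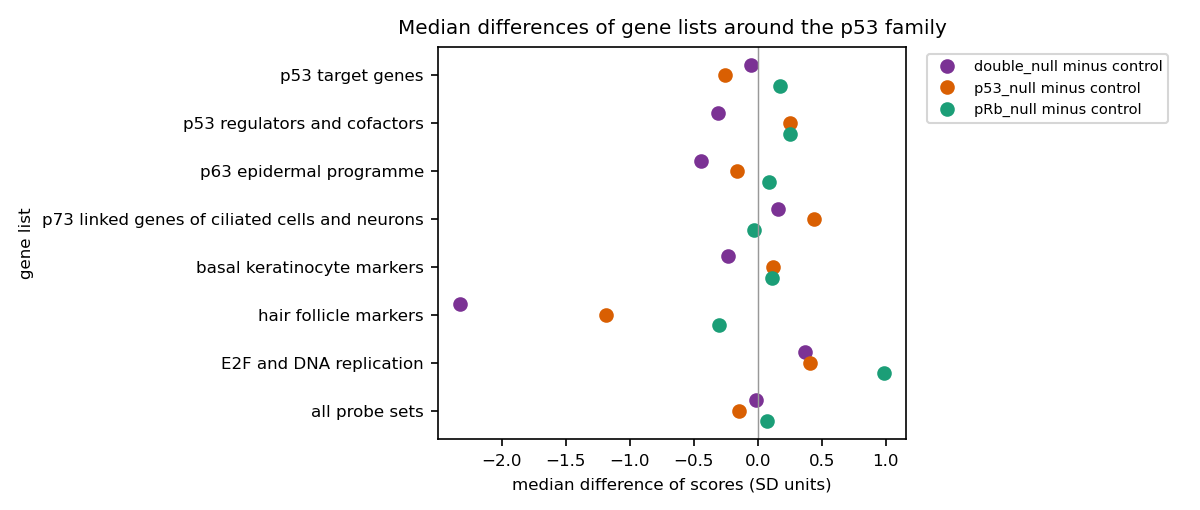
Median difference of scores from control (SD units, horizontal axis) over the probe sets of 7 gene lists and over all probe sets, with a point for each of double_null, p53_null and pRb_null. The p53 targets lie near the median of all probe sets, the p63 programme is at -0.44 in double_null, and the hair follicle markers reach -2.33 there.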

How the data were processed

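Whole-skin RNA of 4 genotypes was measured on 8 arrays. The values the authors deposited are scores: each of 22690 probe sets has mean 0 and SD 1 over the arrays within 1e-06, with values from -2.43 to 2.45. The authors used RMA, per the submitters' processing notes. The sources used here do not state whether logarithms were taken first. The platform annotation gave 20393 probe sets 1 symbol, 691 several and 1606 none, and 20364 of the first matched RefSeq (GRCm38.p6) by Entrez number, with 0 symbols changed.

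limma 3.58.1 (R 4.3.3) fitted 4 group means to all probe sets with an ordinary t statistic on 4 residual degrees of freedom. Benjamini-Hochberg adjustment ran over all probe sets within each of 9 comparisons, and a probe set was called at an adjusted p under 0.05. limma's moderated test, an alternative, took 39.6 prior degrees of freedom on these standardized rows and called 0. The fit was tested on simulated data.

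The named probe sets are all those of the 3 genes, Rb1, the called members of a list with up to 4 examples by smallest p, and for each member the 5 most like and 3 most opposite genes by r, of which those printed are a part. Where another gene of a list is named for how its probe sets part, it was chosen after its values were seen. The members and the 15 gene lists were chosen with earlier results of these data known. Alternatives were quantile normalization, setting each array's median to 0, a replicate block, array weights, 1 probe set per gene, only the groups compared, an additive model and leaving out each array. A replicate block with crossed numbers was added after seeing the data. The number of arrays limits the precision. Tables and plots used Python 3.11.15, pandas 2.3.3 and matplotlib 3.10.9.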

Additional observations from a re-analysis of the deposited data

Results flagged for a closer look

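Trp63 1451876_a_at stood out because its arrays moved in opposite directions with and without the other loss. Without pRb, p53 loss put both double_null arrays below both pRb_null arrays, and with pRb it put both p53_null arrays above both control arrays. The same held for pRb loss without and with p53. The interaction, which tests whether these differences are unequal and not the sign of either, was -2.85 ± 0.48 (adjusted p = 0.282). It did not pass. Trp63 1452027_a_at showed the same orders, with an interaction of -2.60 ± 0.56 (adjusted p = 0.333), which did not pass either. On both probe sets the control arrays, which lie in each of these interactions, were the lowest of the 8.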

How the results depend on the processing

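No member that was tested passed in any of the 9 comparisons under any setting run, and with 1 probe set per gene not all 5 were tested. Over the 30 Trp63 and Trp73 differences printed, 458 values were recomputed, with a smallest adjusted p of 0.114; 451 kept their sign and 7, in 4 differences, did not. With 1 array left out, Trp63 1418158_at in the interaction ranged from -1.22 to 0.24, the positive value coming without double_null array 2. Trp73 1427697_a_at ranged from -1.53 to 1.39 in double_null minus control, from -0.76 to 2.16 in p53_null minus control and from -0.91 to 2.01 in pRb_null minus control, and quantile normalization gave 0.08 in the first. The cause was not tested.

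The calls of other probe sets depended on the setting. In double_null minus control 192 probe sets were called, against 1 after quantile normalization, 0 by the moderated test, 0 with only the groups compared, 1 to 8 with an array left out, 205 with array medians set to 0, 142 with array weights and 125 with 1 probe set per gene. With p53 loss averaged 285 were called, against 17 after quantile normalization, 0 by the moderated test, 3 to 9 with an array left out, 203 with array medians set to 0, 261 with array weights, 195 with 1 probe set per gene and 193 in the additive model. In p53_null minus control 27 were called, against 0 after quantile normalization and by the moderated test, 0 with only the groups compared, 0 to 5 with an array left out, 5 with array medians set to 0, 39 with array weights and 17 with 1 probe set per gene. The replicate block, in which equal array numbers of the genotypes are paired, left 0 members and 0 probe sets called in these comparisons. The deviations of same-numbered arrays from their group means had correlations of -0.163 to 0.197, which gave no sign that the numbers pair them. With pRb_null numbers crossed, a choice made after seeing the data, 7 were called in double_null minus control, 27 with p53 loss averaged and 1 in p53_null minus control. The 7 calls given above for Huwe1, Dram1, Cdkn1a, Notch1, Egfr and Cdh3 held in 0 to 3 of 15 or 16 alternatives each. The calls of the hair follicle markers were not followed through the alternatives.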

Other observations

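Disagreement between the probe sets of a gene was not particular to Trp63. Genes of the lists described above gave further cases, chosen after their values were seen. Fgfr2, a receptor of the epidermis, scored on 1420847_a_at -0.29 and -0.71 in double_null, 0.66 and 0.41 in p53_null, 0.80 and 1.49 in pRb_null and -1.45 and -0.91 in control, with the control arrays lowest. On 1433489_s_at it scored -1.45 and -1.45 in double_null, 1.09 and 0.43 in p53_null, 1.01 and 0.45 in pRb_null and -0.34 and 0.26 in control, with double_null lowest. Yap1 scored on 1416487_a_at 0.13 and -0.81 in double_null and -0.94 and -1.43 in control, and on 1448363_at -1.05 and -1.57 in double_null and 0.72 and 1.43 in control. In both genes the probe set with the suffix _a_at was the one with the lowest control arrays. Not every such probe set had this order: Egfr 1460420_a_at had the control arrays highest, at 0.73 and 1.39. Whether the order of the control arrays follows the suffix was not tested beyond the shares given above for all probe sets.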
